A study of Mus musculus with 6 samples.

Results

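The genes described here encode the chains of the fibrillar collagens, and they were taken by gene symbol: Col1a1, Col1a2, Col2a1, Col3a1, Col5a1, Col5a2, Col5a3, Col11a1, Col11a2 and Col24a1. They are 10 of the 46983 genes in the table of expression values, and all 10 passed the filter on low values. The RNA came from aortic valves of wild type C57BL/6J mice of 2 ages, pups at postnatal day 2 (PND2, 3 libraries) and adults at 4 months (3 libraries). Each library came from the valves of 5 to 6 mice pooled together, so a library averages its animals and the p-values below measure the spread between pools. The labels record no treatment for either group. Levels are RPKM, reads scaled to exonic length and to the read total of the library. The exonic length takes in every listed exon of a gene. It exceeded the longest protein-coding transcript unequally, as in Col1a2 (12426 against 5348 bases) and Col1a1 (6563 against 5930 bases). The order of chains and the size of a ratio between them depend on these lengths, while the change of a chain or ratio with age does not.

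Fibrillar collagens are secreted as procollagens made of intertwined chains whose helical part carries a glycine at regular intervals, and they assemble into the banded fibrils that give connective tissue its tensile strength. Types I and III are the bulk collagens of heart valves, types V and XI are found within the same fibrils and limit their diameter, type II is the fibrillar collagen of cartilage, and type XXIV is known mainly from developing bone and cornea. In the valve, collagen fibrils form the load-bearing fibrosa layer and are made by valve interstitial cells.

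The repeat is visible in the coding sequence, and exon 8 of Col1a1 is printed to show it. It is a 54-base exon on the plus strand of mm10 at chr11:94939904-94939957, read from GENCODE vM21, and capitals mark the codons that begin with GG and so encode glycine.
Col1a1 exon 8: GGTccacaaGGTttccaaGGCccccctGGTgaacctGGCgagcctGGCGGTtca
In the longest protein-coding transcript of each member, between 21 (Col1a1) and 33 (Col24a1) exons were exactly 54 bases long. The longest unbroken run of 9-base units that start with GGN held 337 to 344 units in the members other than Col24a1, and 216 units in Col24a1, whose helix is known to be interrupted.

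Alternative exons outside the helix carry results below, and these sequences are printed so that the reads over them can be placed. Exon 2 of Col2a1 (chr15:98000403-98000606, minus strand) encodes a cysteine-rich propeptide module that is known to be kept in immature and skipped in mature cartilage, and capitals mark its cysteine codons, TGC and TGT.
Col2a1 exon 2: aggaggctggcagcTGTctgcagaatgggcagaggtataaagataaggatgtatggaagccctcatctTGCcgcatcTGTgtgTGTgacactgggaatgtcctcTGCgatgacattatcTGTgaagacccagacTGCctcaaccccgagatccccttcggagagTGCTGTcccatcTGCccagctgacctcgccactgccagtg
Col11a1 has an exon of 117 bases (chr3:114094517-114094633) and an exon of 153 bases (chr3:114094861-114095013) that each stand as exon 6 of a different annotated transcript. Both lie on the plus strand, and capitals mark the lysine codons, AAA and AAG, of which the shorter exon holds 1 and the longer exon 19.
Col11a1 117-base exon: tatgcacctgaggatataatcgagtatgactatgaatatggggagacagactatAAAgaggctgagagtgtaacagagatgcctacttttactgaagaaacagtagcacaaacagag
Col11a1 153-base exon: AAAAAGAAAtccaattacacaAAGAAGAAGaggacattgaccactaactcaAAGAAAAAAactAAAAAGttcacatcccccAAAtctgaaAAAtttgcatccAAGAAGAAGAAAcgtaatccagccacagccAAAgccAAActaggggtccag

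Promoters were available for 7 of the 10 members, from RefSeq on GRCm38.p6, the assembly also called mm10. None was used for Col1a1, Col2a1 and Col5a2. The 250 bases before the start are printed for Col3a1, the most abundant member, and for Col5a1 and Col5a3, chains of the same collagen type whose levels moved in opposite directions with age. Capitals mark matches, on either strand, to the CCAAT box (CCAAT), the GC box (GGGCGG) and the TATA box (TATAAA), and no match overlapped another.
Col3a1 promoter, chr1:45311288-45311537, plus strand: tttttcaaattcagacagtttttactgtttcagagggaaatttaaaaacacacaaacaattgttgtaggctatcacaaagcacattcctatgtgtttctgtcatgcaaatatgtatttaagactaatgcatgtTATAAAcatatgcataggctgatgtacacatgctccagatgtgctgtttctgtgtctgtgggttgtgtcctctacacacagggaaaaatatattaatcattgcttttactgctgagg
Col5a1 promoter, chr2:27886175-27886424, plus strand: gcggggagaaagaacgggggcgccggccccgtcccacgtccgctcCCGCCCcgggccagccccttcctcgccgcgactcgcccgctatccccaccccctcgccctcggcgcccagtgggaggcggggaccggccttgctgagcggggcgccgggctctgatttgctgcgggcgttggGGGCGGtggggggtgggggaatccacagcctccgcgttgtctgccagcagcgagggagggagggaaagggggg
Col5a3 promoter, chr9:20815068-20815317, minus strand: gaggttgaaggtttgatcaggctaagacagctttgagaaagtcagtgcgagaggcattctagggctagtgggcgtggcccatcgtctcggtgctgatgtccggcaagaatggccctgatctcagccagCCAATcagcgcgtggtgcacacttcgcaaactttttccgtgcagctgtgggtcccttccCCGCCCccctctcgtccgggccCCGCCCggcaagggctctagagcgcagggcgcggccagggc
A GC box was present in 5 of the 7 windows (Col1a2, Col5a1, Col5a3, Col11a1 and Col11a2), against 32.7% of 32851 promoter windows of the same length. A CCAAT box was present in 3 (Col1a2, Col5a3 and Col11a1), against 33.8%. A TATA box was present in 2 (Col3a1 and Col11a2), against 12.4%, and the Col24a1 window held none of these motifs. The TATAAA matches began at -117 (Col3a1) and -143 (Col11a2), counted from the start. A match is a description of the letters only.

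The library totals recovered from the RPKM were 23810507 to 38994657 reads, which are the totals that scale the values and not the sequencing depth. In bulk tissue, fewer cells of a type and less RNA per cell cannot be told apart, so the markers of valve and neighbouring cells were read in the same libraries. Markers of valve interstitial cells were present at both ages, with a summed level of 4724 to 5102 RPKM at PND2 and 8329 to 10588 RPKM at 4 months (3 of 10 higher, 3 lower). Endothelial markers were lower at 4 months in 8 of 8 (425 to 576 RPKM against 240 to 257 RPKM). Smooth muscle markers were higher in 6 of 8 (7454 to 8614 RPKM against 16842 to 27883 RPKM), and adipocyte markers in 7 of 8 (92.9 to 178 RPKM against 284 to 646 RPKM, with Cidec at 0 in each PND2 library). Cardiomyocyte markers were lower in 4 of 9 (17889 to 20142 RPKM against 6457 to 11092 RPKM). Of all genes tested, 21.1% were lower and 14.7% higher at 4 months at the same threshold, a limma adjusted p under 0.05. These levels differed between the ages as the results below did, and their part in those results was not tested.

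Most fibrillar collagen genes were lower at 4 months than at PND2. With limma on log2(RPKM + 0.1), 7 of the 10 members were lower and 2 were higher at an adjusted p under 0.05, and Col2a1 did not pass. Over all 25903 genes tested, 35.8% were called, 21.1% lower and 14.7% higher. The median log2 fold change of the members was -0.81, against -0.14 for all genes tested. Scaling each library to its median moved that background to -0.02 and turned the direction of no member. At a fold over 2, 6 members passed, 4 of them lower and 2 higher, against 17.2% of all genes (8.47% lower and 8.72% higher). The 3 libraries of an age did not overlap those of the other in 9 members, 7 of them lower and 2 higher, against 50% of all genes (29.9% lower and 20% higher).

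**Figure D1:**
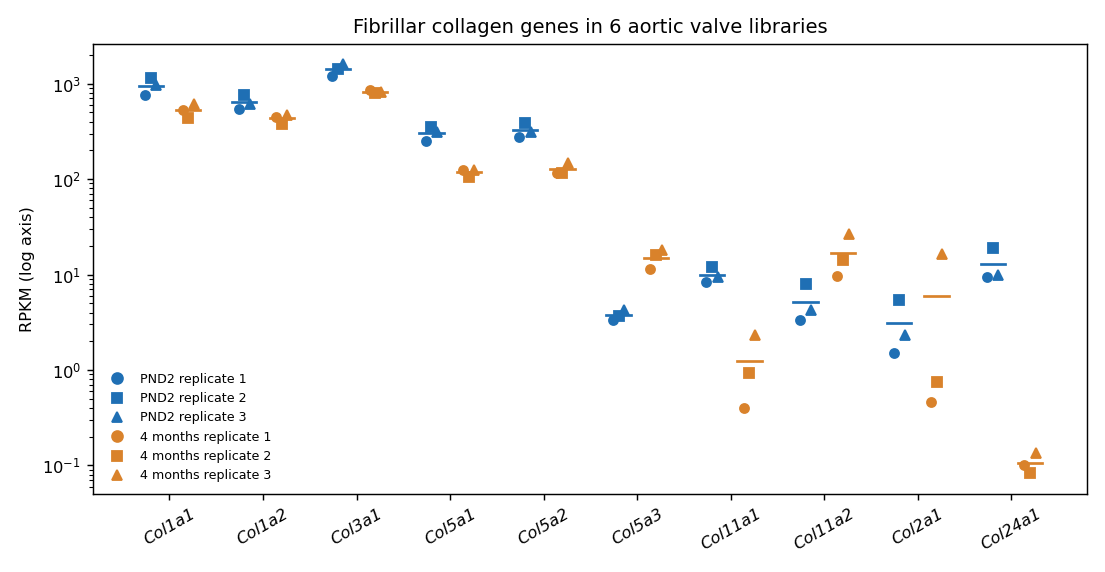
RPKM of the 10 fibrillar collagen genes on a log axis, 1 point per library (blue PND2, orange 4 months, marker shape the replicate) with a bar at the mean of 3 libraries. Col5a3 and Col11a2 sit higher at 4 months, Col2a1 overlaps between the ages because of a 4 months library at 16.6 RPKM, and the remaining genes sit lower at 4 months.

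The bulk chains were the most abundant members at both ages. Col3a1, the chain of type III collagen (chr1:45311538-45349706), stood at 1208, 1439 and 1591 RPKM at PND2 and at 852, 797 and 823 RPKM at 4 months. Every PND2 library was above every 4 months library, and the log2 fold change was -0.77 (SE 0.14, limma adjusted p = 0.00618). Col1a1 (chr11:94936224-94953042) encodes the alpha 1 chain of type I collagen, of which each molecule normally takes a pair. Its level was 770, 1133 and 964 RPKM at PND2 and 524, 432 and 615 RPKM at 4 months. It fell by 0.86 on the log2 scale (SE 0.19, limma adjusted p = 0.0119), again without overlap. Col1a2 (chr6:4504814-4541544), the partner alpha 2 chain, stood at 546, 758 and 616 RPKM at PND2 and at 444, 381 and 473 RPKM at 4 months. Its change was the smallest of the called members, at -0.56 (SE 0.16, limma adjusted p = 0.0284). The Col1a2 call was lost under median scaling (-0.44, adjusted p = 0.0561) and quantile normalization (-0.36, adjusted p = 0.0945). It was also lost without the second or the third PND2 library (adjusted p = 0.0816 and 0.0727) and without the first, the second or the third 4 months library (0.0542, 0.0735 and 0.054).

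The main type V chains, which regulate fibril diameter, fell further than the bulk chains. Col5a1 (chr2:27886425-28039514) stood at 248, 355 and 312 RPKM at PND2 and at 126, 104 and 126 RPKM at 4 months. Col5a2 (chr1:45374321-45503282), which lies next to Col3a1 on the opposite strand, stood at 279, 384 and 311 RPKM at PND2 and at 116, 116 and 148 RPKM at 4 months. Both had a log2 fold change of -1.35 (SE 0.15), with limma adjusted p = 0.000805 for Col5a1 and 0.000818 for Col5a2. The PND2 means were 2.57 and 2.56 times those at 4 months.

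Reads from opposite strands were not separated at Col5a1. An exon of the antisense gene Gm13372 that covers exon 63 of Col5a1 held 1311, 1569 and 1270 reads at PND2 and 681, 361 and 582 at 4 months. The Col5a1 exon itself held 1304, 1559 and 1258 reads at PND2 and 646, 344 and 568 at 4 months, nearly the same numbers. The reads of the genes on either strand cannot be told apart there. Col1a2, Col3a1, Col5a2, Col5a3 and Col24a1 also overlap other annotated genes.

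Col5a3, the minor alpha 3 chain of type V collagen, rose while the main type V chains fell. Its level (chr9:20770050-20815067) was 3.36, 3.71 and 4.30 RPKM at PND2 and 11.4, 15.9 and 17.9 RPKM at 4 months. The 4 months libraries were all higher, and the log2 fold change was 1.94 (SE 0.20, limma adjusted p = 0.000518). The mean at 4 months was 3.98 times that at PND2.

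The type XI chains, close relatives of type V, also moved in opposite directions. Col11a1 (chr3:114030540-114220718) stood at 8.38, 12.1 and 9.39 RPKM at PND2 and at 0.402, 0.937 and 2.35 RPKM at 4 months. Each 4 months library was lower than each PND2 library, and the log2 fold change was -3.20 (SE 0.53, limma adjusted p = 0.00362). Col11a2 (chr17:34039437-34066685) stood at 3.34, 7.88 and 4.23 RPKM at PND2 and at 9.59, 14.2 and 26.8 RPKM at 4 months. The ages did not overlap, and the log2 fold change was 1.66 (SE 0.43, limma adjusted p = 0.0222). Without the third 4 months library the Col11a2 estimate was 1.26 (adjusted p = 0.0587), and without the first or the third PND2 library it was 1.40 (adjusted p = 0.0616) or 1.57 (adjusted p = 0.0654).

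Col24a1, the chain of type XXIV collagen, showed the largest difference of the 10 members. Its level (chr3:145292472-145552011) was 9.32, 19.0 and 9.91 RPKM at PND2 and 0.102, 0.0827 and 0.136 RPKM at 4 months. These values rest on 2770, 4424 and 2211 reads at PND2 and on 29, 15 and 30 reads at 4 months. The log2 fold change was -5.89 (SE 0.33, limma adjusted p = 5.07e-05), and the PND2 mean was 119 times the mean at 4 months. The pseudocount of 0.1 is close to the level at 4 months, so the fitted value understates that ratio. Col27a1, a related fibrillar collagen outside the 10, stood at 17.2 ± 6.39 RPKM (SD, n = 3) at PND2 and at 9.26 ± 2.59 RPKM at 4 months and did not pass (-0.85, limma adjusted p = 0.0772).

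**Figure D2:**
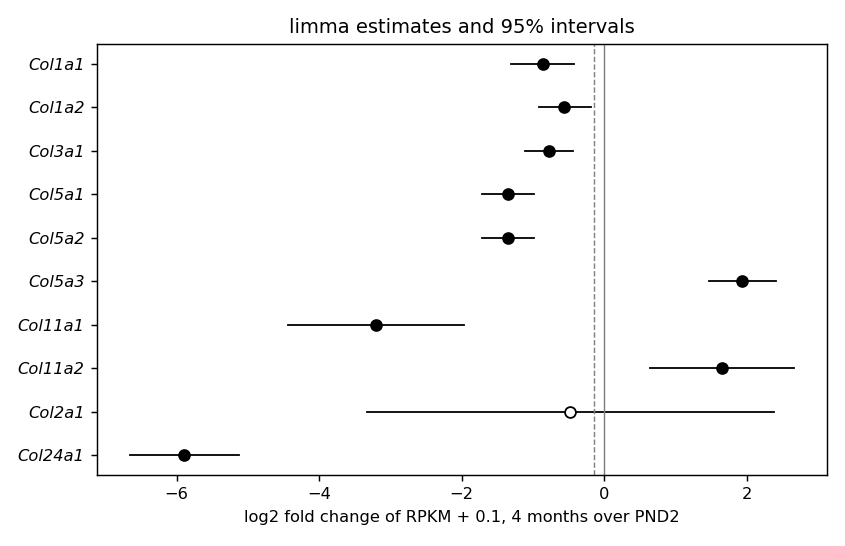
log2 fold change of RPKM + 0.1 at 4 months over PND2 for each member, with the 95% interval from limma on 3 libraries per age. Filled points passed an adjusted p under 0.05, the open point (Col2a1, -0.48) did not, the solid line is 0 and the dashed line the median of all genes tested (-0.14).

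Col2a1, the fibrillar collagen of cartilage, varied more between libraries of 1 age than between the ages. Its level (chr15:97975602-98004695) was 1.52, 5.37 and 2.35 RPKM at PND2 and 0.464, 0.756 and 16.6 RPKM at 4 months. The third 4 months library was higher than every other library, and the remaining 4 months libraries were lower than every PND2 library. The log2 fold change was -0.48 (95% interval -3.33 to 2.38, limma adjusted p = 0.793). Without the third 4 months library it was -2.01 (adjusted p = 0.0424), without the first it was 0.44 (adjusted p = 0.812), and without the second it was 0.14 (adjusted p = 0.953).

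The same library was the highest of its age in 11 of the 14 cartilage markers above 0 at 4 months and in 6 of 9 osteoblast markers. Comp, a cartilage and tendon matrix protein, was 179, 308 and 642 RPKM in the 4 months libraries, and Chad, which encodes chondroadherin, was 112, 209 and 372 RPKM. Lect1, which encodes chondromodulin, was 2.77, 2.60 and 8.85 RPKM, and the osteoblast gene Spp1 was 29.0, 64.5 and 192 RPKM. Others did not follow: Hapln1, a link protein, was 7.96, 11.5 and 9.66 RPKM, and the bone genes Alpl and Phex were lowest in the third library (9.07, 8.14 and 8 RPKM, and 5.01, 7.16 and 4.71 RPKM). The summed level of the 15 cartilage markers was 149 to 276 RPKM at PND2 and 354 to 1133 RPKM at 4 months, with 4 of 13 tested genes higher and 5 lower. Comp and Chad together made up most of that sum in each 4 months library. The summed level of the osteoblast markers was 4.48 to 6.12 RPKM at PND2 and 46.4 to 216 RPKM at 4 months, with 7 of 8 tested genes higher. Spp1 made up most of it in each 4 months library. Matn1, a defining cartilage gene, was at 0 in 5 libraries and at 0.0512 RPKM in the third PND2 library. The cartilage collagens Col9a1 and Col9a2 and the cartilage proteoglycan Acan were lower at 4 months, with log2 fold changes of -3.67, -4.61 and -2.77. The part of these cells in the Col2a1 values was not tested.

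Exon 2 of Col2a1, printed above, stood below the level of the whole gene at PND2 and in the third 4 months library. Its RPKM was 0.248, 0.389 and 0.356 times that of the gene at PND2, and 0.0306 times in the third 4 months library. Exon 2 was looked at after the values were seen, since it overlaps other listed exons and falls outside the exon rule used below. It held 3, 13 and 5 reads at PND2 and 0, 1 and 3 reads at 4 months. In the third 4 months library those 3 reads were 0.104% of 2888 Col2a1 reads (exact 95% interval 0.0214 to 0.303%). At PND2 the share was 0.843% (0.174 to 2.44%), 1.32% (0.706 to 2.25%) and 1.21% (0.394 to 2.80%) of 356, 983 and 413 reads. The interval of the third 4 months library lay below those of the second and the third PND2 library and overlapped that of the first. Exon 1, next to exon 2, held 3, 15 and 3 reads at PND2 and 1, 0 and 56 reads at 4 months. The first and second 4 months libraries had 104 and 108 Col2a1 reads in all, too few to place the share (upper limits 3.48 and 5.05%). These intervals cover counting error only, and the comparison is between libraries and not between ages.

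**Figure D3:**
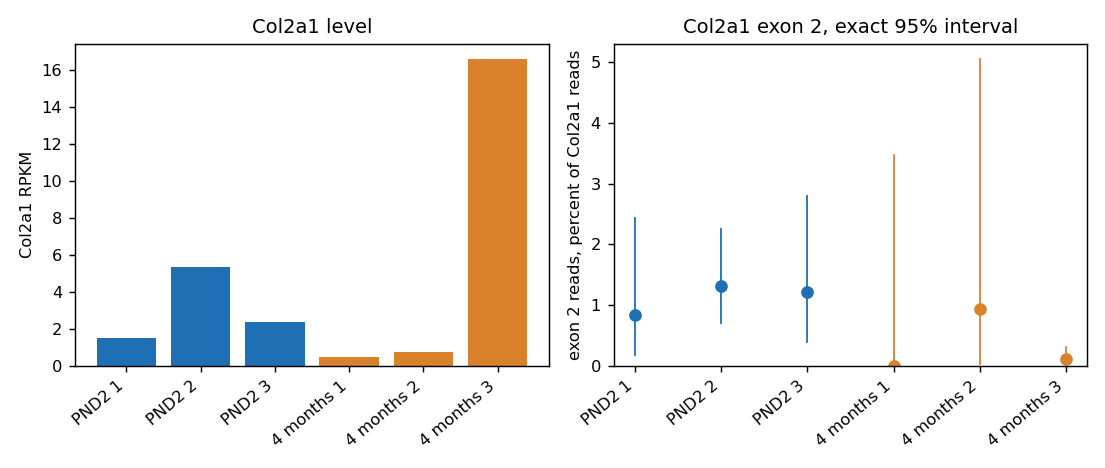
Col2a1 in each library: bars give the gene's RPKM, and points give the reads of exon 2 as a percent of all Col2a1 reads with the exact 95% binomial interval. The third 4 months library has the highest bar, 16.6 RPKM, and an exon 2 share of 0.104%.

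Within an age, some libraries were high or low in most members. The first PND2 library was the lowest of its age in 10 of 10 members and the second the highest in 8. Among the 4 months libraries, the third was the highest in 9 of 10 members and the first in Col3a1, while the first was the lowest in 4 members and the second in 6. Ratios of chains within a library remove such shared shifts, and 11 ratios were compared by exact permutation tests, for which 3 libraries against 3 cannot give a p under 0.1. In 8 of the 11 the ages did not overlap, each with exact permutation p = 0.1 and a Benjamini-Hochberg adjusted p of 0.138, so none passed 0.05.

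The chains of type I collagen are needed in fixed proportion, and the ratio of their messages was lower at 4 months. Whether the levels came closer cannot be read from RPKM, since the exonic lengths exceed those of the transcripts unequally. The Col1a1/Col1a2 ratio was 1.41, 1.5 and 1.56 at PND2 and 1.18, 1.14 and 1.30 at 4 months. The Col3a1/Col1a1 ratio overlapped between the ages, at 1.5 ± 0.201 (SD, n = 3) at PND2 and 1.60 ± 0.253 at 4 months (exact permutation p = 0.6). The Col5a1/Col5a2 ratio was 0.939 ± 0.0601 at PND2 and 0.943 ± 0.125 at 4 months, and it also overlapped (exact permutation p = 1).

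Against the bulk chains, type V messages were lower at 4 months. The Col5a1/Col1a1 ratio was 0.321, 0.314 and 0.324 at PND2 and 0.240, 0.240 and 0.205 at 4 months. The 3 PND2 values had an SD of 0.00536, the tightest of these ratios relative to its mean. The Col5a2/Col3a1 ratio was 0.231, 0.267 and 0.195 at PND2 and 0.136, 0.146 and 0.18 at 4 months, so its highest adult value was 0.18 and its lowest pup value 0.195.

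The minor chains shifted most against their partners. The Col5a3/Col5a1 ratio was 0.0136, 0.0104 and 0.0138 at PND2 and 0.0903, 0.153 and 0.142 at 4 months. Its log2 difference was 3.33. The Col11a1/Col11a2 ratio was 2.51, 1.54 and 2.22 at PND2 and 0.0419, 0.0661 and 0.0875 at 4 months, so Col11a1 was the more abundant type XI chain at PND2 and Col11a2 at 4 months. Col11a1/Col5a1 was 0.0327 ± 0.00228 at PND2 and 0.0103 ± 0.00780 at 4 months. Col24a1/Col5a1 was 0.0410 ± 0.0113 at PND2 and 0.000894 ± 0.000160 at 4 months.

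**Figure D4:**
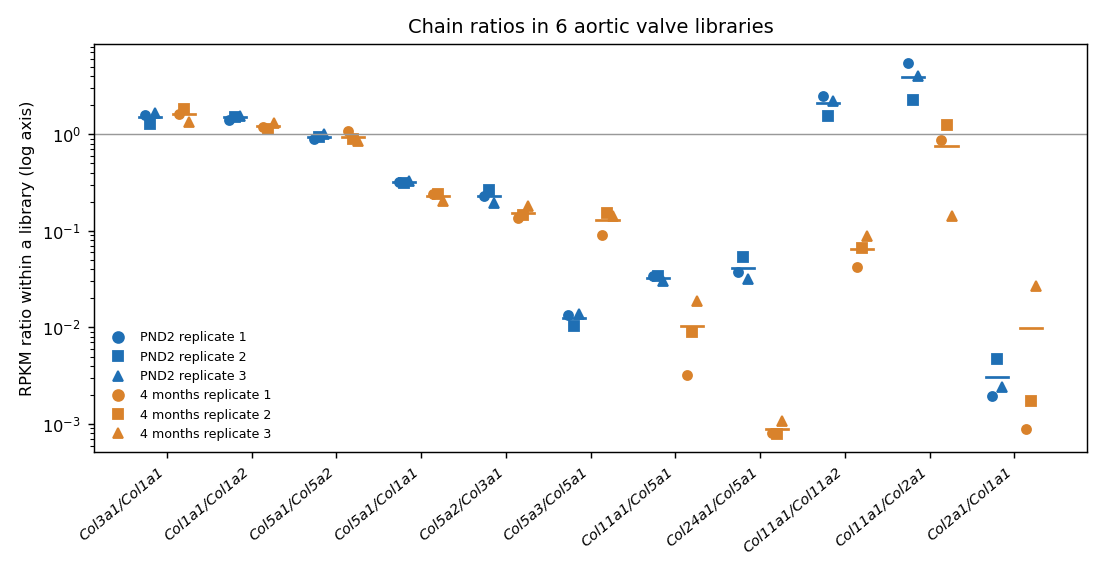
Ratios of RPKM between 2 chains within each library, on a log axis, 1 point per library (blue PND2, orange 4 months) with a bar at the mean of 3. The ages separate in 8 of 11 ratios, most widely for Col24a1/Col5a1 and Col11a1/Col11a2, and overlap for Col3a1/Col1a1, Col5a1/Col5a2 and Col2a1/Col1a1.

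The ratios with Col2a1 were the most variable at 4 months. Col11a1/Col2a1 was 5.51, 2.26 and 3.99 at PND2 and 0.866, 1.24 and 0.141 at 4 months, without overlap. Its log2 difference was -2.79, and -1.83 without the third 4 months library. Col2a1/Col1a1 was 0.00197, 0.00474 and 0.00244 at PND2 and 0.000885, 0.00175 and 0.0270 at 4 months, with overlap (exact permutation p = 1).

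The order of the levels was the same for the 5 abundant chains at both ages and changed among the minor ones. By RPKM, Col3a1, Col1a1, Col1a2, Col5a2 and Col5a1 followed each other from the highest, and only Col5a2 and Col5a1 overlapped at PND2. Col1a2 had more reads than Col1a1 in every library, so its place below Col1a1 rests on its exonic length (12426 against 6563 bases). At 4 months Col1a1 and Col1a2 overlapped too. Col24a1 and Col11a1 came next at PND2, overlapping each other, and had the lowest means at 4 months, where Col11a2 and Col5a3 held their places. At 4 months Col11a1 overlapped with Col2a1. Col11a2 overlapped with Col5a3, and Col5a3 with Col2a1, at both ages.

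Fibrillar collagens made up less of the collagen message at 4 months. The 10 members summed to 3077, 4116 and 3824 RPKM at PND2 and to 2084, 1862 and 2250 RPKM at 4 months. They held 60.5, 60.7 and 61.4% of the RPKM of 44 collagen genes at PND2, and 47.2, 48.3 and 49.7% at 4 months. The ages did not overlap, at the smallest p this design allows (exact permutation p = 0.1). Their reads were 3.41 ± 0.484% (SD, n = 3) of the library at PND2 and 1.94 ± 0.167% at 4 months. Within the members, Col1a1, Col1a2 and Col3a1 together made up 81.9 ± 1.02% at PND2 and 86.3 ± 1.2% at 4 months, and Col5a1 with Col5a2 17.1 ± 0.829% and 11.9 ± 0.295%. The remaining 5 members made up 0.934 ± 0.206% and 1.87 ± 0.903%, and there the ages overlapped.

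Other collagen classes did not share 1 direction. Of 9 fibril-associated collagens, which bind to fibril surfaces, 1 was higher and 4 were lower at 4 months. Col12a1 stood at 41.4 ± 13.4 RPKM (SD, n = 3) at PND2 and at 5.64 ± 1.16 RPKM at 4 months (log2 fold change -2.83, limma adjusted p = 0.000278). Of 12 basement membrane and network collagens, 6 were higher and 2 lower, among them Col18a1, a basement membrane collagen (1.92, adjusted p = 0.00012), Col4a6 (3.02, adjusted p = 2.6e-05) and Col4a1 (-1.03, adjusted p = 0.00108). Of 11 other collagens tested, 1 was higher and 5 were lower. The medians of the 3 classes were -0.73, 0.54 and -0.88, against -0.14 for all genes tested. Their shares called were 55.6%, 66.7% and 54.5%, against 35.8%.

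Genes that build procollagen were mostly lower or not called. Of 17 genes of procollagen modification and folding, 8 were lower, 1 was higher and 8 did not pass (52.9% called, median -0.41). P4ha3, a prolyl 4-hydroxylase subunit, was 42.1, 66.6 and 43.8 RPKM at PND2 and 1.97, 1.81 and 3.01 RPKM at 4 months (-4.43, limma adjusted p = 5.09e-05). Fkbp10 (-1.40, adjusted p = 0.00115), a collagen chaperone, and P3h1 (-1.25, adjusted p = 0.00125), a prolyl 3-hydroxylase, were lower, and Colgalt2 (0.87, adjusted p = 0.0196), a collagen galactosyltransferase, was higher. Of 8 procollagen export genes, 2 were lower (25% called, under the 35.8% of all genes tested). They were the transcription factor Creb3l2 (-0.77, adjusted p = 0.0078) and the coat protein Sec23a (-0.41, adjusted p = 0.0135).

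Genes that act on secreted collagen divided. Of the genes tested, 85.7% were called in propeptide removal and 80% in fibril cross-linking, against 35.8% of all genes tested. Of 7 tested genes of propeptide removal, 2 were higher and 4 lower, and both higher genes, Pcolce (0.68, adjusted p = 0.00832) and Pcolce2 (2.12, adjusted p = 3.09e-05), encode enhancers of the C-propeptidase, as limma found. The N-propeptidase genes Adamts14 (-1.85, adjusted p = 0.00457) and Adamts3 (-0.92, adjusted p = 0.0221) were lower. So was the C-propeptidase gene Tll1 (-1.04, adjusted p = 0.0204). The more abundant propeptidase genes changed less. Bmp1 had means of 140.5 RPKM at PND2 and 106 RPKM at 4 months (-0.41, adjusted p = 0.0303). Adamts2 had means of 88.05 and 64.7 RPKM and did not pass (-0.45, adjusted p = 0.0762). Of the 5 lysyl oxidases, which cross-link fibrils, Lox was 295, 294 and 245 RPKM at PND2 and 59.4, 45.3 and 52.9 RPKM at 4 months (-2.41, adjusted p = 4.65e-05). Loxl2 (-1.70, adjusted p = 0.00194) was also lower, while Loxl3 (0.73, adjusted p = 0.00906) and Loxl4 (1.48, adjusted p = 0.013) were higher.

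Most fibril-binding regulators were higher at 4 months. Of 15, 10 were higher and 4 lower (93.3% called, median 1.42). Comp (4.99, limma adjusted p = 0.000333), Prelp (3.50, adjusted p = 9e-05), a small leucine-rich proteoglycan, and Aebp1 (2.31, adjusted p = 0.00014) were higher. Fn1 (-1.48, adjusted p = 0.00137), which encodes fibronectin, Postn (-0.97, adjusted p = 0.00135), periostin, and Thbs2 (-0.96, adjusted p = 0.00294) were lower. Smooth muscle markers were higher in the same libraries, as given above. The valve interstitial markers called higher at 4 months were Dcn, Bgn and Lum, which are also in this list of regulators.

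Collagen receptors and collagen-cleaving proteases each held genes of both directions. Of the genes tested, 55.6% of the receptors and 100% of the proteases were called, against 35.8% of all genes. Of 9 tested receptors 3 were higher and 2 lower: the discoidin receptor Ddr2 (1.43, limma adjusted p = 0.000647), the integrin Itga10 (1.19, adjusted p = 0.00721) and Lair1 (1.75, adjusted p = 0.00296) rose, and Ddr1 (-1.22, adjusted p = 0.00121) and Itga2 (-1.32, adjusted p = 0.0269) fell. Of 6 tested proteases, Mmp14 (-2.05, adjusted p = 8.97e-05), Mmp2 (-0.70, adjusted p = 0.0222) and Ctsk (-0.80, adjusted p = 0.00168) were among 4 that fell. Mmp9 (3.32, adjusted p = 0.00146) and Mmp13 (1.39, adjusted p = 0.00615) rose, from means of 0.321 and 0.587 RPKM at PND2 to 3.76 and 1.72 RPKM at 4 months.

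For the 3 abundant chain types, the genes with the most similar profile were found among 6902 genes with a mean of at least 20 RPKM, as the root mean square difference of centred log2 values over the 6 libraries. P3h1, the prolyl 3-hydroxylase named above, was nearest to Col5a1 at 0.0561, followed by Gm27000 (0.0615) and Mpzl1 (0.07), and Col5a2 stood at 0.119. Pdgfrl (0.0765), Farp1 (0.0813) and Gm10320 (0.0835) were nearest to Col1a1. Cdc16 (0.0320), Gm13320 (0.0383) and Pxn (0.0428) were nearest to Col3a1. Col1a2 stood at 0.169 from Col1a1, so the partner chains of type I collagen were not each other's nearest profile. With 6 libraries in 2 age groups, many genes that fell by a like amount lie close.

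Exon usage, the RPKM of an exon over the median exon RPKM of its gene in that library, was measured for 466 of 668 distinct exons of the members. An exon was described where the age means differed at least 1.5-fold, the ages did not overlap and the exon held at least 20 reads on average at the age of higher use. This held for 21 exons: 9 in Col5a3, 6 in Col11a1, 4 in Col11a2 and 1 each in Col5a1 and Col1a1. None was found in Col1a2, Col2a1, Col3a1 or Col5a2, and none could be measured in Col24a1, whose median exon was at 0 at 4 months. Only 3 of the 21 held at least 20 reads on average at both ages, and the other 18 rest on few reads at 1 age.

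The values follow for those of the 3 that lie in Col5a3 and Col11a2. A 108-base exon of Col5a3 (chr9:20793510-20793617) had a usage of 1.84 ± 0.250 (SD, n = 3) at PND2 and 1.07 ± 0.122 at 4 months, on 23 to 26 and 45 to 69 reads. A 192-base exon of Col11a2 (chr17:34044819-34045010) had 0.984 ± 0.179 and 0.629 ± 0.0911, on 18 to 59 and 49 to 105 reads. Exons 14 and 15 of Col5a3 lie side by side among the thinly covered exons. The 57-base exon held 0, 0 and 1 reads at PND2 and 19, 27 and 29 at 4 months, and the 54-base exon 1, 0 and 4 and 22, 24 and 45. Usage was 0.0421 ± 0.0729 at PND2 and 0.868 ± 0.203 at 4 months for the 57-base exon. For the 54-base exon it was 0.226 ± 0.276 and 1.08 ± 0.308. The gene had a mean of 3.79 RPKM at PND2, so reads over its short exons were few there. Whether that accounts for these usages was not tested.

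The alternative exons of Col11a1 were looked at after the values were seen. The 117-base exon held 40, 90 and 53 reads at PND2 and 3, 5 and 14 at 4 months. The lysine-rich 153-base exon held 0 reads in each PND2 library, which allows up to 0.503, 0.643 and 0.670 RPKM at a limit of 3 reads, where the 117-base exon stood at 8.77, 25.2 and 15.5 RPKM. At 4 months it held 0, 0 and 5 reads, and the library with 5 reads was again the third, the one with high Col2a1. At the first and second 4 months libraries the depth was too low to compare the alternatives.

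Coverage along the transcripts overlapped between the ages. For Col1a1, Col1a2, Col3a1, Col5a1 and Col5a2, the median RPKM of the exons nearest the 5′ end over that of the exons nearest the 3′ end was 0.709 to 1.11, and the ages overlapped for each gene.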

How the data were processed

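Values were the RPKM that the authors deposited per gene and per exon. By the study's methods and the submitters' processing notes, trimmed reads were aligned to mm10 with TopHat2 2.1.0 and counted on Ensembl release 83 with easyRNASeq 2.4.7 in R 3.2.2. The study's minimum of 50 reads and floor of 10 reads are not applied in these RPKM tables. The library kit is stranded, and whether counting used strand is not given in the sources used here. Whole reads were recovered from RPKM, length and library total, and 100% of values came out whole within 0.01 reads.

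log2(RPKM + 0.1) was fitted with limma 3.58.1 (R 4.3.3, eBayes with a trend) for the 25903 genes that reached 0.1 RPKM in 3 or more libraries, with Benjamini-Hochberg adjustment over all of them, and an adjusted p under 0.05 was called. The fit was tested on simulated data. Single ratios, shares and exons were compared by 2-sided exact permutation tests over libraries. Exon records with the same coordinates were counted once, and exons that overlap another or have under 30 bases were left out. The members and gene lists were chosen with earlier results of these data known. Named genes are the members, Col27a1, at most 3 genes per list and direction with the largest called change and a mean of at least 1 RPKM at either age, and the 3 nearest profiles. An exon result on Col5a1 is not reported here. Exons, cartilage genes and the propeptidase genes Bmp1 and Adamts2 named beyond this are marked or were chosen after their values were seen. Tables and figures used Python 3.11.15, pandas 2.3.3, scipy 1.17.1 and matplotlib 3.10.9.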

Additional observations from a re-analysis of the deposited data

How the results depend on the processing

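The counts of members higher and lower at 4 months (2 and 7) and of other collagen pathway genes (28 and 37) held within 1.5 times under pseudocounts of 1 and 0.01, other filters on low values, no trend, median scaling, quantile normalization, voom on the recovered reads and the replicate block. A test of each gene alone with unequal variances, as the study used, was the exception, with 1 and 3 members and 9 and 16 pathway genes. Over all genes tested, that test called 13.2% (5.66% higher and 7.5% lower), against 35.8% in the main fit. Leaving out each library in turn gave 1 to 2 members higher and 6 to 7 lower. Over all genes, those fits called 10.4 to 13.8% higher and 13.5 to 20.3% lower, against 14.7% and 21.1% in the main fit. Of 160 member estimates under an alternative, 139 kept direction and side of the threshold, 17 lost the call (10 of them Col1a2), 1 gained it (Col2a1 without the third 4 months library, -2.01) and 3 turned sign, all 3 in Col2a1 (0.44, 0.14 and 0.01, the last without the second PND2 library). Over ratios, 84 of 85 alternatives moved by less than the spread between libraries, and with median exon RPKM the Col11a1/Col11a2 difference was -5.86 in place of -5.04. The ratios with Col24a1 or Col2a1 gave no such value, since the median exon of these genes was at 0 in at least 1 library. The fall in the collagen share was -11.5 percentage points with median exon RPKM, against -12.4. The 21 exons became 3 with a minimum of 100 bases, 53 with gene RPKM as reference, and 24 to 35 leaving out a library. The causes were not tested. The replicate numbers did not pair the libraries (correlations 0.0439, -0.0608 and -0.16). With the replicate block, 7167 genes were called against 9273, and the Col1a2 estimate of -0.56 lost its call (adjusted p = 0.0617), the only member to do so.

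With 3 pools per age, the exact tests had a smallest p of 0.1. Depth limits Col24a1 and Col11a1 at 4 months, Col5a3 at PND2 and the alternative exons, and no result was checked in single animals.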
